A study of Homo sapiens with 24 samples.

Results

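Untreated SKBR3 cells sampled at day 7 were compared with untreated SKBR3 cells sampled at day 0, which asks what a week in culture without any drug does to the transcriptome of the control cells. The comparison rests on 6 of the 24 libraries of the series, the 3 control libraries of day 7 and the 3 proliferative control libraries of day 0, and on all 13636 genes of the 14493 listed that passed a filter on low counts. The other 18 libraries come from day-7 cells given ND-646, TVB-3166, bleomycin, alisertib, doxorubicin, or palbociclib, and they enter below as levels and in 1 alternative fit. SKBR3 is an established human breast cancer line that carries an amplified ERBB2 gene and makes much of its own fat through high levels of the enzymes ACC and FASN. The study included the untreated day-7 cells because cells kept for a week may stop cycling as nutrients run out, and its methods describe routine expansion in DMEM with fetal bovine serum. Labels of the drug-treated cells mention a refeed on day 3, whereas those of the untreated day-7 cells do not, and the seeding density and the confluence at harvest are not given in the sources used here.

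As background, cells that take up less lipid from their surroundings switch on lipid synthesis through SREBP transcription factors. SREBP-1, encoded by SREBF1, favours the enzymes that build fatty acids, and SREBP-2, encoded by SREBF2, favours the enzymes of the sterol pathway. INSIG1 holds both factors back in the endoplasmic reticulum when sterols are plentiful and is itself one of their targets. Shortage of amino acids and other stresses act through a separate route, in which translation of the transcription factor ATF4 increases and genes for amino acid transport and synthesis follow. When growth factors fall away, FOXO factors enter the nucleus and raise genes such as CCNG2, BCL6, and TXNIP.

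Levels are given as CPM, counts scaled to the size of the library after TMM normalization, which corrects for differences in RNA composition, and differences as log2 fold-changes of day 7 relative to day 0 with their standard error (SE). The study's rule, a fold-change of at least 2 with a raw p under 0.05, applied here to edgeR's quasi-likelihood test, was met by 226 genes that were higher at day 7 (1.66% of those tested) and by 45 that were lower (0.33%). After Benjamini-Hochberg adjustment, 53 genes were higher (0.389%) and 27 were lower (0.198%) at an adjusted p under 0.05. In what follows a gene rose or fell if it passed either rule, and values alone are given for the others. At any fold, 1667 genes had a raw p under 0.05 and were higher (12.2%) and 1589 were lower (11.7%), and in 2004 genes each way (14.7% and 14.7%) the day-7 libraries lay entirely above or entirely below those of day 0. The median log2 fold-change of all genes was 0.01.

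**Figure D1:**
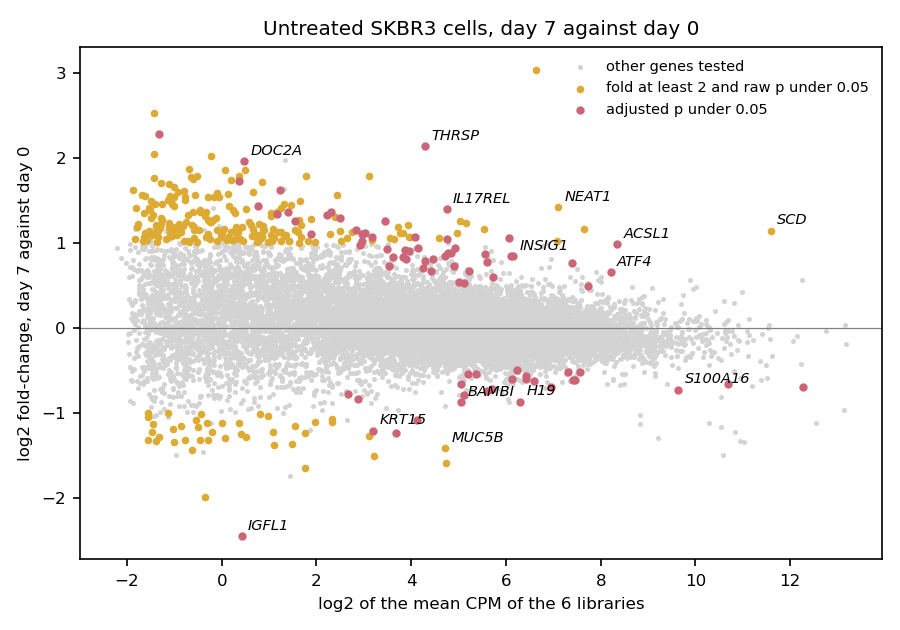
Log2 fold-change of untreated day 7 relative to day 0 (vertical axis) against the log2 of the mean CPM of the 6 libraries (horizontal axis), 1 point per gene tested. Genes with an adjusted p under 0.05 (53 higher, 27 lower) lie almost all above 1 CPM, whereas many genes that met only the 2-fold rule lie at the low end.

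Genes that met the 2-fold rule were often scarce transcripts. Of the 226 that rose by that rule, 106 (46.9%) had a mean under 1 CPM, against 9.72% of all genes tested, and 18.6% were long non-coding RNAs, against 5.46%. The 53 genes that rose at the adjusted p were 96.2% protein-coding, had a median level of 17 CPM, and changed by 0.50 to 2.28 on the log2 scale. All 80 genes past the adjusted p had libraries that did not overlap between the days.

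Day-0 replicate 1 stood apart from the other libraries, with 8.01% of its counts in the 13 messenger RNAs that mitochondrial DNA encodes, against 1.22% to 2.93% in the other 5. Without it 205 genes met the 2-fold rule upward and 56 downward, and 54 and 40 passed the adjusted p, of which 62 were among the original 80. Other single libraries decided the adjusted calls. Omitting replicate 2 of either day, or replicate 3 of day 7, left no gene past the adjusted p in edgeR, with 965 to 1398 higher genes and 976 to 1349 lower genes at a raw p under 0.05. With all 6 libraries, DESeq2 placed 548 genes higher and 584 lower at its adjusted p, including 79 of the 80. The labels do not say that replicates came from separate cultures, so the p-values measure the spread between these libraries, which may be technical.

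Genes of fatty acid synthesis were higher at day 7. Of 17 list members tested, 15 were higher by any amount, and 10 were higher and 1 was lower at a raw p under 0.05. The shares to set beside every such count from this fit of all 6 libraries are 12.2% and 11.7% of all genes. Those shares do not hold where a library is left out. At that p, 1438 genes were higher and 1342 lower of 13748 without day-0 replicate 1. Without day-7 replicate 2 these were 965 and 976 of 13725, and without day-7 replicate 3 they were 1094 and 1095 of 13740. Of the 17 list members, 5 rose by the 2-fold rule and 3 passed the adjusted p, with a median log2 fold-change of 0.52. Without day-0 replicate 1 the median was 0.40, with 11 higher at the raw p, 3 by the 2-fold rule, and 4 at the adjusted p. Without day-7 replicate 2 the median was 0.49, with 7 higher at the raw p, 3 by the 2-fold rule, and none at the adjusted p.

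THRSP (NCBI Gene 7069, chromosome 11 from 77774907 to 77779397 of GRCh37), which encodes Spot 14, a protein that promotes lipogenesis, was at 4.86, 9.56, and 7.24 CPM in the day-0 libraries and 24.5, 44.6, and 26.4 CPM in the day-7 libraries. Every day-7 library was above every day-0 library, and day-7 replicate 2 was the highest. Its log2 fold-change was 2.15 ± 0.27 (SE, edgeR adjusted p = 0.0315), and it was 1.81 without day-7 replicate 2. MID1IP1, which encodes the paralog of Spot 14 that helps ACC to polymerise, was at 23.5, 35.7, and 27 CPM at day 0 and 41.1, 42.1, and 40.1 CPM at day 7. The days did not overlap, at a log2 fold-change of 0.52 ± 0.14 (SE, edgeR adjusted p = 0.0894).

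ACACB, the gene of the ACC isoform at the mitochondrial surface, had 37.7, 46.4, and 42.2 CPM in the day-0 libraries and 67.7, 58.4, and 65 CPM in the day-7 libraries. The day-7 libraries were all higher, and the gene rose by 0.60 ± 0.11 on the log2 scale (SE, edgeR adjusted p = 0.0474). ACACA, the cytosolic ACC, overlapped between the days, with a log2 fold-change of 0.26. FASN, which joins malonyl-CoA units into palmitate, stood at 4508, 4238, and 3128 CPM at day 0 and 6395, 5788, and 5348 CPM at day 7. Its libraries did not overlap, and its log2 fold-change of 0.56 ± 0.15 (SE, edgeR adjusted p = 0.0873) passed neither rule. ME1, the malic enzyme that supplies NADPH for this synthesis, was at 124, 123, and 129 CPM at day 0 and 172, 265, and 202 CPM at day 7. All 3 day-7 libraries were higher and replicate 2 was the highest of them, and ME1 rose by 0.77 ± 0.14 on the log2 scale (SE, edgeR adjusted p = 0.0474).

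SCD, the desaturase that introduces the first double bond into saturated fatty acids, was at 1036, 2424, and 2297 CPM in the day-0 libraries and 3878, 5033, and 3837 CPM in the day-7 libraries. Day-0 replicate 1 was the lowest by far, and no day-0 library reached the day-7 libraries. SCD rose by the 2-fold rule with a log2 fold-change of 1.15 ± 0.27 (SE, edgeR adjusted p = 0.0721), and without day-0 replicate 1 the value was 0.85, under 2-fold. FADS1 and FADS2, desaturases of polyunsaturated fatty acids, also met the 2-fold rule, at log2 fold-changes of 1.46 ± 0.49 (SE, edgeR adjusted p = 0.124) and 1.21 ± 0.47 (SE, edgeR adjusted p = 0.163), but day-0 replicate 2 overlapped with the day-7 libraries in both. Leaving out single libraries moved their log2 fold-changes from 1.04 to 2.23 and from 0.77 to 2.0, the lowest without day-0 replicate 1 and the highest without day-0 replicate 2. ACLY, which makes cytosolic acetyl-CoA from citrate, was at 993, 1080.2, and 996 CPM at day 0 and 1177, 1092, and 1113 CPM at day 7. Its days barely separated, with a log2 fold-change of 0.14 ± 0.10 (SE, edgeR adjusted p = 0.394).

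Regulators of sterol and lipid synthesis were also higher. Among 17 genes of sterol regulation and uptake, 13 were higher, 7 at a raw p under 0.05 and none lower at that p, with a median of 0.27, and 1 passed the adjusted p. Without day-7 replicate 2 the median was 0.16 and 4 were higher at the raw p, and without day-0 replicate 1 the values were 0.21 and 6. INSIG1 (NCBI Gene 3638, chromosome 7 from 155089486 to 155101945) was at 48.4, 46.7, and 58.1 CPM in the day-0 libraries and 83.6, 101, and 90.6 CPM in the day-7 libraries. No libraries overlapped, and INSIG1 rose by 0.84 ± 0.11 on the log2 scale (SE, edgeR adjusted p = 0.0315). SREBF1 was at 609, 874, and 798 CPM at day 0 and 1210.0, 1007, and 1144 CPM at day 7, again without overlap, and its log2 fold-change was 0.56 ± 0.14 (SE, edgeR adjusted p = 0.0820). SREBF2, at 402, 364, and 349 CPM at day 0 and 451, 484, and 427 CPM at day 7, differed by a log2 fold-change of 0.29 ± 0.10 (SE, edgeR adjusted p = 0.120).

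Enzymes of cholesterol synthesis had a smaller median difference. Of 20 enzymes, 15 were higher by any amount, 6 were higher and 1 was lower at a raw p under 0.05, and none met the 2-fold rule or the adjusted p, with a median of 0.13, which was 0.07 without day-0 replicate 2. MSMO1, a sterol demethylation enzyme, had the highest log2 fold-change, 0.49 ± 0.11 (SE, edgeR adjusted p = 0.0680), followed by TM7SF2 at a log2 fold-change of 0.46 ± 0.11 (SE, edgeR adjusted p = 0.0789) and IDI1 at a log2 fold-change of 0.45 ± 0.11 (SE, edgeR adjusted p = 0.0751). ACAT2, which makes acetoacetyl-CoA, was the 1 lower enzyme, at a log2 fold-change of -0.33 ± 0.13 (SE, edgeR adjusted p = 0.170). The difference between this list and that of fatty acid synthesis was not tested.

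The promoters of THRSP, MID1IP1, and INSIG1 are shown because they belong to the regulators of lipid synthesis that separated the days. Each is the 250 bases before the RefSeq start, placed by exact match on the plus strand of GRCh37 at chr11:77774657-77774906, chrX:38660462-38660711, and chr7:155089338-155089587. Capitals mark motifs searched on both strands, CACGTG (the E-box, which reads alike on both) and CCAAT (the NF-Y motif), which do not overlap here.
THRSP: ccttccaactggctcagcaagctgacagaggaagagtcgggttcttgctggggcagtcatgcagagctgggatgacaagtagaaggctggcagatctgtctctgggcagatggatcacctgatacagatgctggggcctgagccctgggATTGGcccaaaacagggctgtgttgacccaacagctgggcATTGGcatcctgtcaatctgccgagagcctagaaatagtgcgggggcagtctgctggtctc
MID1IP1: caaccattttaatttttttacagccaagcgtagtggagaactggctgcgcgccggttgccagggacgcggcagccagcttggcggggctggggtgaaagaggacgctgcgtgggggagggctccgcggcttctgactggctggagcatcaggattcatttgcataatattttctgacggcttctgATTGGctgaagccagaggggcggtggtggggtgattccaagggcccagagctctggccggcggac
INSIG1: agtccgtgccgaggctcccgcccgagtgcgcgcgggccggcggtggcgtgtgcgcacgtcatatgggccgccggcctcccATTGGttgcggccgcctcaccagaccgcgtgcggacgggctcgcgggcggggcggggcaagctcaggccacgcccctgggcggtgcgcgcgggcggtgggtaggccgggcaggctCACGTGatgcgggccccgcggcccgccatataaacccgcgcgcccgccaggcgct
CCAAT stood in reverse at 101 and 61 bases before the THRSP start, at 65 before that of MID1IP1, and at 170 before that of INSIG1. CACGTG stood at 55 bases before the RefSeq start of INSIG1. That start lies downstream of the GENCODE start given above, 155089486, so this match falls inside the gene as GENCODE places it. Among 35116 RefSeq windows of 300 bases, which add 50 bases after the start, CACGTG was in 7.26% and CCAAT in 34.6%. Counted by gene, CACGTG was in at least 1 window of 6 of the 45 lipid genes of the 3 lists that had a window (13.3%) and of 12.8% of the 10292 tested genes that had one. CCAAT was in at least 1 window of 32 of those 45 genes (71.1%) and of 43.2% of the tested genes. A match of letters is a description and does not show that a factor binds there.

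Long-chain acyl-CoA synthetases, which activate fatty acids for use in lipids or for oxidation, included several of the genes that changed most, and these were grouped after their values were seen. ACSL1 (NCBI Gene 2180, chromosome 4 from 185676749 to 185747972, minus strand) was at 214, 228, and 213 CPM in the day-0 libraries and 379, 546, and 370.4 CPM in the day-7 libraries. The day-0 libraries were within a narrow range and all day-7 libraries lay above it, and ACSL1 rose by 0.98 ± 0.14 on the log2 scale (SE, edgeR adjusted p = 0.0365). ACSL4 was at 12.5, 19.7, and 20.4 CPM at day 0 and 29.9, 40.6, and 38.2 CPM at day 7 and rose by 1.05 ± 0.19 on the log2 scale (SE, edgeR adjusted p = 0.0474). ACSL5 was at 15.7, 22.7, and 19.2 CPM at day 0 and 33.3, 67.5, and 37.3 CPM at day 7 and rose by the 2-fold rule at a log2 fold-change of 1.26 ± 0.25 (SE, edgeR adjusted p = 0.0526), whereas ACSL3, which overlapped, was at a log2 fold-change of -0.02 ± 0.10 (SE, edgeR adjusted p = 0.940). ACSF2, a mitochondrial member of the family, was at 8.95, 11.5, and 12.4 CPM at day 0 and 21.8, 25.8, and 21.3 CPM at day 7. The days were separate and it rose by 1.07 ± 0.15 on the log2 scale (SE, edgeR adjusted p = 0.0315). ACSM3, which activates medium-chain fatty acids, met the 2-fold rule at a log2 fold-change of 1.86 ± 0.42 (SE, edgeR adjusted p = 0.0692), from under 1 CPM in each day-0 library. Of 16 acyl-CoA synthetases tested, 6 were higher and 2 lower at a raw p under 0.05, with a median of 0.22, and the lower ones, SLC27A3 and SLC27A4, are fatty acid transport proteins with this activity.

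Genes that place fatty acids into glycerolipids, also listed after values were seen, showed no common direction. Of 23 tested, 4 were higher and 3 lower at a raw p under 0.05, and the median was -0.04. PNPLA3, a lipid droplet protein controlled by SREBP-1, was at 0.784, 1.6, and 1.1 CPM in the day-0 libraries and 3.14, 4.25, and 3.27 CPM in the day-7 libraries and rose by 1.62 ± 0.29 on the log2 scale (SE, edgeR adjusted p = 0.0474). GPCPD1, which releases glycerol-3-phosphate from glycerophosphocholine, was at 31.1, 35.7, and 33 CPM at day 0 and 53.6, 71, and 58 CPM at day 7 and rose by 0.87 ± 0.12 on the log2 scale (SE, edgeR adjusted p = 0.0315). In both genes every day-7 library was above every day-0 library. The lipid droplet coat gene PLIN2 overlapped between the days, at a log2 fold-change of -0.04 ± 0.16 (SE, edgeR adjusted p = 0.901). In the list of PPAR targets and fatty acid oxidation, 2 of 14 members were higher and 1 was lower at a raw p under 0.05, with a median of -0.01. ACSL1 belongs to that list too, and CPT1A, which carries long-chain fatty acids into mitochondria, was at a log2 fold-change of -0.18 ± 0.08 (SE, edgeR adjusted p = 0.196).

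Targets of ATF4 were higher by small amounts at day 7. Of 30 genes of the integrated stress response, 27 were higher by any amount, 15 were higher and 1 was lower at a raw p under 0.05, 3 rose by the 2-fold rule, and 2 rose and 1 fell at the adjusted p, with a median of 0.31. Without day-7 replicate 2 the median was 0.17, 7 genes were higher at the raw p, and none met the 2-fold rule, and without day-0 replicate 1 none met it either, at a median of 0.31. ATF4 itself was at 196, 258, and 235 CPM in the day-0 libraries and 325, 405, and 354 CPM in the day-7 libraries. The libraries did not overlap, and ATF4 rose by 0.65 ± 0.12 on the log2 scale (SE, edgeR adjusted p = 0.0488). CEBPB, a transcription factor that pairs with ATF4, was at 27.2, 26.2, and 25.4 CPM at day 0 and 37.9, 41.4, and 35.8 CPM at day 7 and rose by 0.54 ± 0.10 on the log2 scale (SE, edgeR adjusted p = 0.0474). DDIT3, which encodes CHOP, was at 3.16, 4.3, and 5.25 CPM at day 0 and 7.47, 12.1, and 8.26 CPM at day 7. It met the 2-fold rule without overlap, at a log2 fold-change of 1.13 ± 0.24 (SE, edgeR adjusted p = 0.0596). ATF5 went the other way, at 44, 44.5, and 43.5 CPM at day 0 and 27, 22, and 27.1 CPM at day 7, with all day-7 libraries below day 0, and it fell by 0.79 ± 0.11 on the log2 scale (SE, edgeR adjusted p = 0.0315).

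Other members of this list act in amino acid and folate metabolism or are secreted. ASNS, asparagine synthetase, was at 186, 154, and 160.1 CPM at day 0 and 179, 297, and 200.2 CPM at day 7, with overlap and a log2 fold-change of 0.43 ± 0.17 (SE, edgeR adjusted p = 0.160). SLC7A11, the cystine transporter, was at 25.4, 16, and 21.2 CPM at day 0 and 27.4, 48.8, and 32.6 CPM at day 7. Its days did not overlap, at a log2 fold-change of 0.79 ± 0.22 (SE, edgeR adjusted p = 0.0900). ALDH1L2, a mitochondrial folate enzyme, met the 2-fold rule at a log2 fold-change of 1.19 ± 0.34 (SE, edgeR adjusted p = 0.0960), and the value was 0.73 without day-7 replicate 2. GDF15, a secreted stress cytokine, met it at a log2 fold-change of 1.02 ± 0.41 (SE, edgeR adjusted p = 0.173) with overlapping libraries, and the value was 0.35 without day-7 replicate 2. Among 16 genes of the unfolded protein response, none was higher and 1 was lower at a raw p under 0.05, with a median of 0.02.

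Genes linked to withdrawal of growth factors and to FOXO were also higher, with 17 of 22 higher by any amount, 8 higher and none lower at a raw p under 0.05, and a median of 0.29. Without day-7 replicate 2 the median was 0.20, with 5 higher and 1 lower at the raw p. BCL6, a repressor that FOXO factors induce, was at 15.8, 13.1, and 14.7 CPM in the day-0 libraries and 21.4, 27, and 22.5 CPM in the day-7 libraries. The days were separate and BCL6 rose by 0.70 ± 0.13 on the log2 scale (SE, edgeR adjusted p = 0.0474). TXNIP, an inhibitor of thioredoxin and glucose uptake, was at 116, 130.5, and 127 CPM at day 0 and 156, 473, and 209 CPM at day 7. Day-7 replicate 2 was far above the rest, and the log2 fold-change of 1.17 ± 0.32 (SE, edgeR adjusted p = 0.0906) was 0.55 without it. CCNG2, a cyclin that restrains the cell cycle, was at 14.5, 20.4, and 26.2 CPM at day 0 and 22.9, 41.5, and 39.6 CPM at day 7 and overlapped, at a log2 fold-change of 0.77 ± 0.24 (SE, edgeR adjusted p = 0.115). RBL2, the p130 pocket protein that takes part in quiescence, was at 55.1, 45.9, and 55.9 CPM at day 0 and 73.3, 94.2, and 77.1 CPM at day 7. No day-0 library reached the day-7 libraries, and the log2 fold-change was 0.64 ± 0.12 (SE, edgeR adjusted p = 0.0521).

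Cell cycle genes had medians a little under 0, and none met the 2-fold rule or the adjusted p in edgeR. Of 43 S phase genes, 14 were lower and 1 was higher at a raw p under 0.05, with a median of -0.20, and of 54 G2/M phase genes 18 were lower and none higher, with a median of -0.18. DESeq2 placed 9 of the S phase and 10 of the G2/M genes lower at its adjusted p and none higher. Of all 13635 genes, it placed 584 lower and 548 higher at that p. Without day-7 replicate 2 the medians in edgeR were -0.14 and -0.16, and 9 and 11 genes were lower at the raw p, whereas without day-0 replicate 1 they were -0.20 and -0.18, with 19 and 17 lower. MKI67, which encodes the proliferation marker Ki-67, was at 678, 313, and 339.9 CPM in the day-0 libraries and 345, 246, and 248 CPM in the day-7 libraries. Day-0 replicate 1 was far above the rest and day-7 replicate 1 lay just above the remaining day-0 libraries, at a log2 fold-change of -0.67 ± 0.26 (SE, edgeR adjusted p = 0.164). FEN1, a nuclease of DNA replication, was at 163, 152, and 148 CPM at day 0 and 117, 93.9, and 113 CPM at day 7. Its days did not overlap, at a log2 fold-change of -0.52 ± 0.10 (SE, edgeR adjusted p = 0.0543). In bulk RNA a smaller share of cycling cells and less RNA of these genes per cell cannot be told apart. TOP2A, a topoisomerase of dividing cells, was at 654, 732, and 863 CPM at day 0 and 741, 826, and 778 CPM at day 7, and overlapped at a log2 fold-change of 0.06 ± 0.12 (SE, edgeR adjusted p = 0.787).

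Histone genes were lower in 16 of 16 tested, 10 of them at a raw p under 0.05, with a median of -0.35, and none passed either rule. Without day-0 replicate 1 the median was -0.26, with 9 lower at the raw p. H2BC12, a core histone gene, was at 155, 138, and 119 CPM in the day-0 libraries and 103, 83.1, and 92.9 CPM in the day-7 libraries. The day-7 libraries were all lower, at a log2 fold-change of -0.56 ± 0.12 (SE, edgeR adjusted p = 0.0608). Detected levels of histone messages without a poly(A) tail depend on the library kit, for which the methods name total RNA and the labels name mRNA. Inhibitors of cyclin-dependent kinases and G1 cyclins showed no common direction, with 2 of 15 higher and 3 lower at a raw p under 0.05 and a median of 0.00. CDKN1A, which encodes p21, was at 8.27, 20.6, and 17.8 CPM at day 0 and 10.9, 9.94, and 15.1 CPM at day 7. It overlapped, at a log2 fold-change of -0.38 ± 0.29 (SE, edgeR adjusted p = 0.449). The value was -0.68 without day-0 replicate 1, the lowest library, and -0.12 without day-0 replicate 2. CCND3, cyclin D3, was at 97.8, 79.9, and 68.7 CPM at day 0 and 60.3, 42.4, and 55.8 CPM at day 7, without overlap, at a log2 fold-change of -0.64 ± 0.16 (SE, edgeR adjusted p = 0.0813).

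Epithelial and secretory genes were among those that fell. Of 22 genes for mucins, trefoil factors, S100 proteins, and related products, 7 were lower and none higher at a raw p under 0.05, 2 fell by the 2-fold rule, and the median was -0.40. Without day-0 replicate 1 none met the 2-fold rule, and the median was -0.26. MUC5B, a gel-forming mucin, was at 68.1, 25.6, and 20.9 CPM in the day-0 libraries and 19.5, 11, and 12.2 CPM in the day-7 libraries. Day-0 replicate 1 was far above the others, and the log2 fold-change of -1.42 ± 0.40 (SE, edgeR adjusted p = 0.0925) was -0.69 without that library. TFF1, a trefoil peptide, was at 6.45, 3.75, and 3.98 CPM at day 0 and 2.78, 1.19, and 2.01 CPM at day 7. Its libraries did not overlap, and TFF1 fell by the 2-fold rule, at a log2 fold-change of -1.23 ± 0.32 (SE, edgeR adjusted p = 0.0861), which was -0.94 without day-0 replicate 1. AGR2, a disulfide isomerase of mucus-producing cells, was at 342, 372, and 394 CPM at day 0 and 290.1, 192, and 244 CPM at day 7, lower in every day-7 library, at a log2 fold-change of -0.61 ± 0.14 (SE, edgeR adjusted p = 0.0684).

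Of single genes outside that list, KRT15, a basal-layer keratin, was at 15.3, 11.6, and 11.5 CPM in the day-0 libraries and 6.11, 5.07, and 5.38 CPM in the day-7 libraries. It fell by 1.21 ± 0.16 on the log2 scale (SE, edgeR adjusted p = 0.0315). CASP14, a caspase of keratinocyte differentiation, was at 21.2, 15.4, and 17.5 CPM at day 0 and 7.92, 6.18, and 8.77 CPM at day 7 and fell by 1.24 ± 0.17 on the log2 scale (SE, edgeR adjusted p = 0.0315). S100A16, a calcium-binding protein, was at 966, 1074, and 939.6 CPM at day 0 and 672, 517, and 610.1 CPM at day 7 and fell by 0.73 ± 0.12 on the log2 scale (SE, edgeR adjusted p = 0.0438). TGM1, keratinocyte transglutaminase, was named after its values were seen and fell by 0.54 ± 0.10 on the log2 scale (SE, edgeR adjusted p = 0.0474). In all of these the day-7 libraries lay below the day-0 libraries.

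Among the genes with the smallest p-values, IL17REL (NCBI Gene 400935, chromosome 22 from 50430240 to 50451194, minus strand), which encodes a protein related to interleukin-17 receptors, was at 13.7, 17.4, and 13.3 CPM in the day-0 libraries and 31.6, 47.4, and 38 CPM in the day-7 libraries. Every day-7 library was above every day-0 library, and IL17REL rose by 1.40 ± 0.16 on the log2 scale (SE, edgeR adjusted p = 0.0315). BAMBI (NCBI Gene 25805, chromosome 10 from 28966439 to 28971861), a decoy receptor that dampens BMP and TGF-beta signals, was at 41.9, 41.3, and 46.3 CPM at day 0 and 22.1, 22.4, and 26 CPM at day 7. It did not overlap and fell by 0.88 ± 0.11 on the log2 scale (SE, edgeR adjusted p = 0.0315). HSPB7, a small heat shock protein gene, was at 43, 55.1, and 50.4 CPM at day 0 and 81.8, 93.4, and 91.3 CPM at day 7 and rose by 0.84 ± 0.11 on the log2 scale (SE, edgeR adjusted p = 0.0315). BTN3A1, a butyrophilin recognised by gamma-delta T cells, was at 2.17, 2.82, and 3.0 CPM at day 0 and 6.78, 7.93, and 5.38 CPM at day 7 and rose by 1.33 ± 0.21 on the log2 scale (SE, edgeR adjusted p = 0.0434). Neither overlapped between the days.

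Other genes were named for the largest falls and rises among those with a mean of at least 1 CPM and separate libraries. IGFL1, a secreted IGF-like protein, was at 2.45, 2.69, and 1.66 CPM in the day-0 libraries and 0.534, 0.117, and 0.571 CPM in the day-7 libraries. It fell by 2.45 ± 0.43 on the log2 scale (SE, edgeR adjusted p = 0.0474). DOC2A, a calcium sensor of vesicle release, was at 0.379, 0.609, and 0.712 CPM at day 0 and 2.05, 2.19, and 2.4 CPM at day 7 and rose by 1.97 ± 0.29 on the log2 scale (SE, edgeR adjusted p = 0.0365). SLC18A2, the vesicular monoamine transporter, rose by 1.73 ± 0.30 on the log2 scale (SE, edgeR adjusted p = 0.0474). PTP4A3, a phosphatase, and P2RX2, an ATP-gated channel, met the 2-fold rule at log2 fold-changes of 1.74 ± 0.36 (SE, edgeR adjusted p = 0.0596) and 1.78 ± 0.39 (SE, edgeR adjusted p = 0.0647). The other rises, as log2 fold-changes, were C1RL at 1.86, PABPC1L at 1.79, and GOLGA8A at 1.79, the last uncertain because near-identical copies of it exist. The other falls by the 2-fold rule, on the same scale, were SIGLEC6 at -1.59, CYP4Z1 at -1.51, which also has a near-identical copy, SERPINA3 at -1.30, BMP3 at -1.29, ZNF175 at -1.27, and TCHHL1 at -1.25. Single libraries moved some of these, as CYP4Z1 was at -0.93 without day-0 replicate 1.

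Targets of hypoxia-inducible factors, which include glycolytic enzymes, had no common direction. Of 29 tested, 5 were higher and 6 lower at a raw p under 0.05, 1 met the 2-fold rule each way, and the median was 0.01. ALDOA, aldolase A, was at 2162, 2075, and 1852 CPM in the day-0 libraries and 1436, 1119, and 1288 CPM in the day-7 libraries. All day-7 libraries were lower, and ALDOA fell by 0.66 ± 0.12 on the log2 scale (SE, edgeR adjusted p = 0.0474). LDHA, lactate dehydrogenase A, was at 2157, 2138, and 2000.3 CPM at day 0 and 1583, 1362, and 1487 CPM at day 7. It did not overlap, at a log2 fold-change of -0.51 ± 0.10 (SE, edgeR adjusted p = 0.0589). ENO1, the main enolase, was at a log2 fold-change of -0.33 ± 0.12 (SE, edgeR adjusted p = 0.133), whereas ENO2, the neuronal enolase, met the 2-fold rule upward at a log2 fold-change of 1.22 ± 0.47 (SE, edgeR adjusted p = 0.159) from under 1 CPM. GAPDH, often used as a reference gene, was named after its values were seen. It was at 6744, 6038, and 5451 CPM at day 0 and 4154, 3285, and 3764 CPM at day 7 and fell by 0.70 ± 0.13 on the log2 scale (SE, edgeR adjusted p = 0.0474). Library totals without TMM scaling shifted the median of all genes to 0.10, and it turned the medians of the PPAR, lysosome, and ERBB2-line lists from just under 0 to 0.08, 0.07, and 0.06, while RLE size factors turned those of the hypoxia list and of the G1 list to just under 0. No direction is given for those lists.

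Targets of the aryl hydrocarbon receptor were uneven. AHRR, the repressor of that receptor, was at 20.5, 18.9, and 16.4 CPM in the day-0 libraries and 26.3, 38.6, and 35.5 CPM in the day-7 libraries. The days did not overlap and AHRR rose by 0.84 ± 0.15 on the log2 scale (SE, edgeR adjusted p = 0.0474). CYP1A1, its classical target enzyme, was at 61.2, 1.57, and 1.45 CPM at day 0 and 54.6, 379, and 100.1 CPM at day 7. Day-0 replicate 1 overlapped with the day-7 libraries and day-7 replicate 2 was the highest, and the log2 fold-change of 3.04 ± 1.18 (SE, edgeR adjusted p = 0.159) was 6.88 without day-0 replicate 1 and 1.82 without day-7 replicate 2. Of 7 targets tested, 2 were higher and none lower at a raw p under 0.05, with a median of 0.59. The median was 0.19 without day-7 replicate 2, with 1 higher, and 0.92 without day-0 replicate 1, with 5 higher.

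Lists of immune genes had medians above 0. Of 27 interferon-stimulated genes 6 were higher and 1 was lower at a raw p under 0.05, with a median of 0.33, which was 0.10 without day-0 replicate 1 or without day-7 replicate 2, with 3 and no genes higher. Of 14 antigen presentation genes 6 were higher and none lower, with a median of 0.31. Only 1 of the 14 was higher at the raw p without day-0 replicate 1, where the median was 0.18, and likewise without day-7 replicate 2 or 3. NLRC5, the activator of MHC class I genes, met the 2-fold rule at a log2 fold-change of 1.19 ± 0.42 (SE, edgeR adjusted p = 0.139), from under 1 CPM, and the value was 0.93 without day-0 replicate 1. Of 17 NF-kB targets 4 were higher and none lower, with a median of 0.13, and 1 was higher without day-0 replicate 1, at a median of 0.05.

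Of the remaining lists, NRF2 antioxidant genes had 6 of 17 higher and 1 lower at a raw p under 0.05 (median 0.24, and 0.07 without day-7 replicate 2), with ME1 and SLC7A11 among them. Circadian clock genes had 5 of 18 higher (median 0.15, and 0.08 with 3 higher without day-7 replicate 2), and PER3 met the 2-fold rule at a log2 fold-change of 1.51 ± 0.46 (SE, edgeR adjusted p = 0.106), from under 1 CPM. Cytosolic heat shock genes had 7 of 14 lower and 1 higher (median -0.20, and -0.29 with 3 lower without day-7 replicate 2), with HSPA8, the constitutive HSP70, at a log2 fold-change of -0.44 ± 0.11 (SE, edgeR adjusted p = 0.0813). Lysosome and autophagy genes had 7 of 27 lower and 1 higher (median -0.02), and ATP6V0D1, a proton pump subunit, fell by 0.57 ± 0.10 on the log2 scale (SE, edgeR adjusted p = 0.0474). Ribosome biogenesis genes had 4 of 28 lower and 2 higher (median -0.13, and -0.085 with 2 lower without day-0 replicate 1), YAP and TAZ targets 3 of 19 higher and 1 lower (median 0.06), immediate early genes 1 of 22 each way (median 0.05), and metallothioneins and zinc export 1 of 3 higher (median 0.26). Leaving out single libraries moved the medians of the hypoxia, PPAR, G1 cyclin, unfolded protein response, lysosome, YAP and TAZ, and immediate early lists across 0.

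Markers of the labelled line were present at both days. All 16 markers of an ERBB2-amplified luminal line were listed, and their sum was 21180 to 24170 CPM in the day-0 libraries and 18570 to 21370 CPM in the day-7 libraries. ERBB2 itself was at 7444, 7115, and 6588 CPM in the day-0 libraries and 7492, 6688, and 6394 CPM in the day-7 libraries. It overlapped, at a log2 fold-change of -0.04 ± 0.11 (SE, edgeR adjusted p = 0.854). The keratins KRT19, KRT8, and KRT18, which define luminal cells, were the lower members at a raw p under 0.05, with log2 fold-changes of -0.61, -0.43, and -0.33. Of markers of other cells, only 1 of 10 for fibroblasts, 2 of 8 for endothelial cells, and 1 of 10 for leukocytes were listed, with sums of at most 15.31, 7.28, and 7.368 CPM. Only genes with reads in every library of the series are listed, so an unlisted marker may still have had reads in some.

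Messenger RNAs encoded by mitochondrial DNA had a median log2 fold-change of -1.14 over 13 genes, and none had a raw p under 0.05. COX1, a subunit of cytochrome c oxidase, was at 26918, 4251, and 4659.9 CPM in the day-0 libraries and 9252, 4435, and 4591 CPM in the day-7 libraries. Day-0 replicate 1 was the highest, and the other day-0 libraries lay within or below the range of the day-7 libraries. Without day-0 replicate 1 the median was 0.33, with 13 of 13 higher. Other settings went the other way. At a raw p under 0.05, 10 were lower without day-0 replicate 2 (median -1.57) and 10 without day-0 replicate 3 (median -1.53). With the replicate number as a block 11 were lower (median -0.71), and with all 24 libraries in one fit 9 were lower (median -1.15). Among the 18 libraries of drug-treated cells the share of these genes was 1.75% to 10%, with a median of 4.34%.

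**Figure D2:**
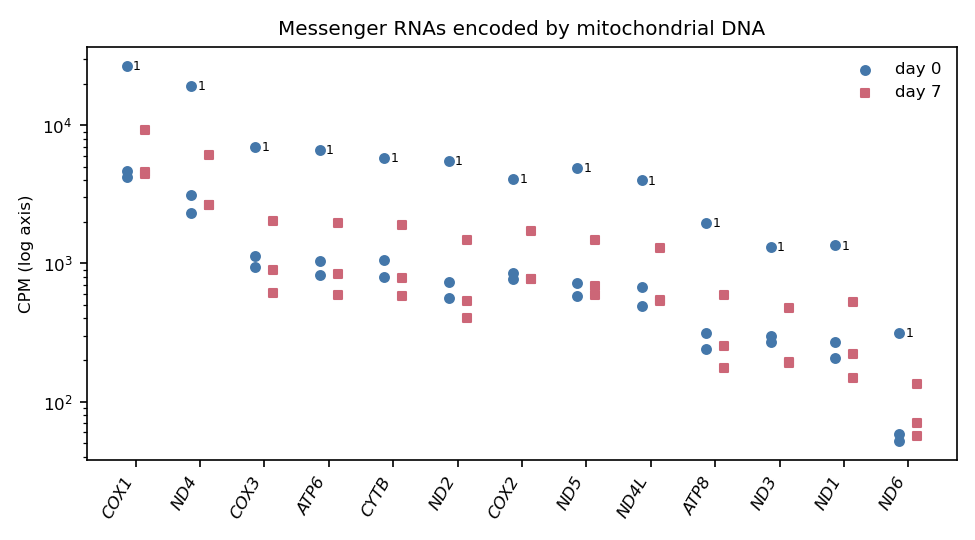
CPM of the 13 messenger RNAs that mitochondrial DNA encodes (vertical axis, log scale) in each untreated library, with circles for day 0 and squares for day 7. The circle marked 1 is day-0 replicate 1, which lies above all other libraries in every gene.

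A list of 40 tested genes held some, but not all, of the genes that the study names, with ACACB for the enzyme ACC. Of these, 16 were higher and 2 lower at a raw p under 0.05, with a median of 0.24. By the 2-fold rule 4 rose and none fell, and at the adjusted p 3 rose and 1 fell. The study's lists of top genes also name INSIG1 and GPCPD1, described above, and MRVI1, which are outside these counts. MRVI1 rose by 1.29 ± 0.20 on the log2 scale (SE, edgeR adjusted p = 0.0434). ACACB is described above. GJA5 (NCBI Gene 2702, chromosome 1 from 147228332 to 147245466, minus strand), the gene of connexin 40, was at 17.9, 21.9, and 22.9 CPM in the day-0 libraries and 36.6, 48.9, and 34.7 CPM in the day-7 libraries. The day-7 libraries were all higher, and GJA5 rose by 0.94 ± 0.15 on the log2 scale (SE, edgeR adjusted p = 0.0438). CILP2, a matrix protein, was at 7.36, 9.49, and 6.47 CPM at day 0 and 12.7, 16.3, and 15.4 CPM at day 7 and rose by 0.93 ± 0.17 on the log2 scale (SE, edgeR adjusted p = 0.0474), without overlap. H19 (NCBI Gene 283120, chromosome 11 from 2016396 to 2025782, minus strand), an imprinted long non-coding RNA, was at 108, 93.6, and 103 CPM at day 0 and 65.1, 40.9, and 60.5 CPM at day 7. All day-7 libraries were lower, and H19 fell by 0.87 ± 0.15 on the log2 scale (SE, edgeR adjusted p = 0.0474).

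Levels of these genes in the drug-treated cells, which share no library with the untreated groups, are set beside them on a scaling over all 24 libraries, without a test. Mean THRSP was 7.21 CPM at day 0 and 31.6 CPM at day 7, and between 17.1 CPM in bleomycin and 103 CPM in palbociclib cells. Mean ACSL1 was 218 and 429 CPM at the 2 untreated days and 578 to 778 CPM in the 6 drug groups. Every drug group thus had a mean above that of untreated day 7 for ACSL1, whereas untreated day 7 lay within the range of the drug groups for THRSP. Mean GJA5 was 20.9 and 39.8 CPM in untreated cells, 0.85 CPM in ND-646, and 1.21 CPM in TVB-3166 cells. Mean ACACB was 42.1 and 63.3 CPM in untreated cells and 8.03 CPM in ND-646 cells. Mean H19 was 102 and 55.1 CPM in untreated cells and 0.547 to 5.08 CPM in the drug groups. GJA5 and ACACB thus were higher at untreated day 7 than at day 0 and lowest in ND-646 cells, and H19 was lower at untreated day 7 and lower still in every drug group.

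**Figure D3:**
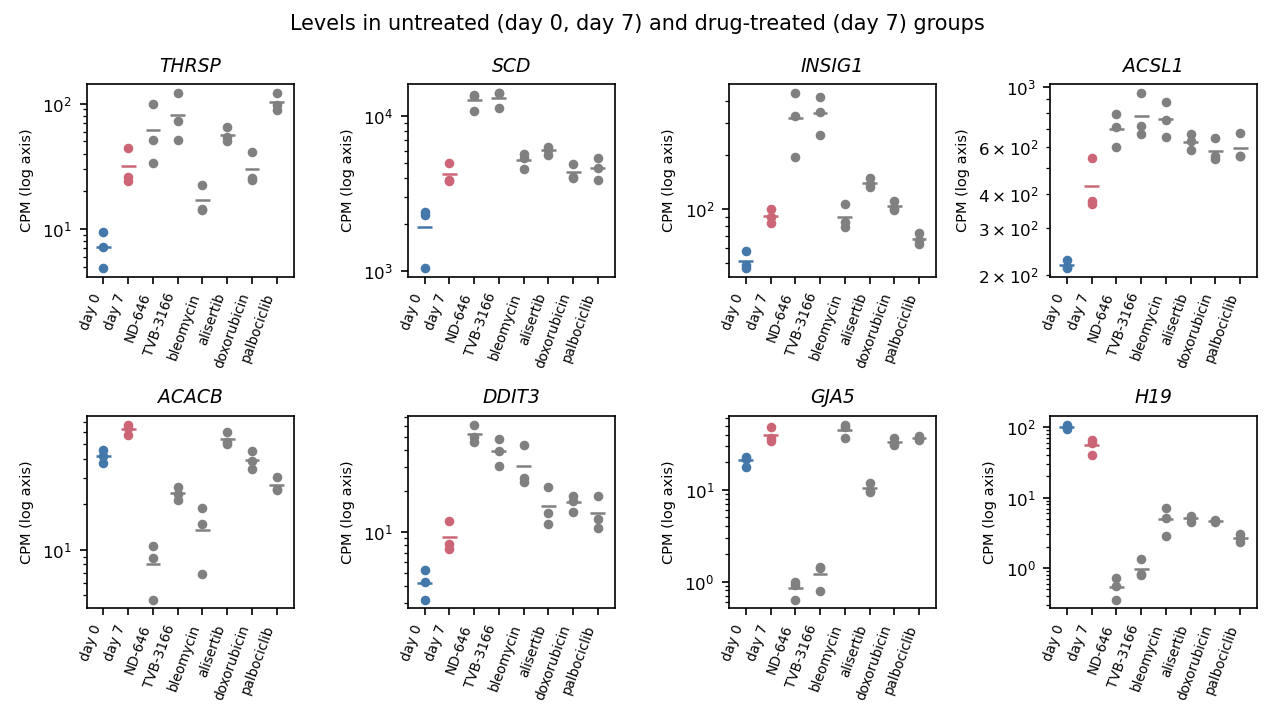
CPM (vertical axes, log scale) of 8 genes in the 3 libraries of each of the 8 groups, with points for libraries and lines for means. Blue is untreated day 0, red is untreated day 7, and grey are the drug-treated day-7 groups. Untreated day 7 lies between day 0 and the drug groups for ACSL1 and DDIT3, and its mean for ACACB, 63.3 CPM, is above that of every drug group.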

How the data were processed

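RNA-seq had been performed by the authors on 24 libraries of SKBR3 cells. Reads were aligned with HISAT2 to GRCh37 and assembled with StringTie, DESeq2 was used for the authors' comparisons, and whole-number counts per gene were deposited by the authors without normalization. The counting settings are not given in the sources used here. Total counts of the 6 untreated libraries were 31467217 to 44316330. All 14493 genes listed had a count of at least 1 in every one of the 24 libraries. Genes without reads in any single library, drug-treated ones included, were thus not among those tested.

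Groups came from the sample labels. Titles of the proliferative control libraries give no day, so day 0 follows the study's description of its untreated cells. The 3 day-7 and 3 day-0 libraries were fitted alone with edgeR 4.0.16 in R 4.3.3 (filterByExpr, TMM, glmQLFit, glmQLFTest, 2-sided), without a term for the replicate number. Adjusted p-values are Benjamini-Hochberg values over all genes tested. An exact permutation test of 3 against 3 cannot go below 0.1 and was not used. Log2 fold-changes came from the edgeR fit at its default prior count. A prior count of 2 was used for log2 CPM values. Of the results given here, these enter the correlations of libraries and the spread by which a list median counted as moved. The steps were tested on simulated data. DESeq2 1.42.0, other scalings, filters, fits, and leaving out each library were the alternatives, and removal of the mitochondrially encoded genes was added after the data were seen.

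Named genes were the 30 with the smallest p-values at an adjusted p under 0.05, and the 10 largest rises and 10 largest falls with no overlap and a mean of at least 1 CPM. An incomplete list of genes that the study names and members of the other gene lists were added, with exceptions stated. Not all of them are described, and some are not reported here. The members and lists were chosen with earlier results of these data known, and the lists of acyl-CoA synthetases, glycerolipid genes, BMP genes, and keratins after the values were seen. Promoter sequences are from RefSeq, and gene positions from the GENCODE annotation of GRCh37.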

Additional observations from a re-analysis of the deposited data

How the results depend on the processing

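Named genes mostly kept their direction under the alternatives, whereas adjusted calls often changed. Many of these genes were chosen from the same libraries for small p-values or for days that did not overlap. Leaving out 1 library can hardly reverse such genes, so their kept direction is no evidence of stability. Of 2181 values of 146 named genes under the alternatives, 1674 kept their direction and side of the adjusted threshold, 312 lost it, 190 gained it, and 5 reversed. The reversals were COX1, ND4, TOP2A, and ERBB2 without day-0 replicate 1, and ERBB2 with library totals only (log2 fold-change 0.055). On leaving out single libraries COX1 spanned -1.423 to 0.453, ND4 -1.661 to 0.485, TOP2A -0.027 to 0.161, and ERBB2 -0.124 to 0.004. The 2-fold rule gave 169 to 366 higher and 55 to 91 lower genes when single libraries were left out, and the adjusted p gave 0 to 54 higher and 0 to 40 lower. By the 2-fold rule, 139 were higher with at least 10 counts in every library, 70 lower without a filter, and 79 lower with all 24 libraries in one fit. At the adjusted p, genes higher and lower numbered 548 and 584 with DESeq2, 28 and 4 with library totals only, 245 and 196 with all 24 libraries in one fit, 105 and 64 with a robust fit, and 0 and 0 in edgeR without a filter (1726 and 1609 at a raw p under 0.05), and 41 were lower after removal of the mitochondrially encoded genes. The share of genes higher among those past the 2-fold rule was 83.4%, and 74.7% with all 24 libraries. The causes were not tested. With the replicate number as a block, 713 were higher and 550 lower. Libraries of the 2 days were also correlated after the mean log2 CPM of the day was subtracted from each gene. These values thus compare deviations from the day's mean and not whole profiles. They were 0.254, 0.075, and 0.174 for same-numbered libraries, and each library correlated best with its own number. Replicate 1 of each day also had the most counts, 43925734 at day 0 and 44316330 at day 7, against 31467217 to 33171676 in the others. It had the highest mitochondrial share of its day as well, 8.01% and 2.93%. The sources used here do not say what the numbers mark. The main fit left them out, and whether they pair the libraries was not tested. Of 464 list medians, 49 moved. Depth was not varied, so what it limits was not tested.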

Other observations

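Genes of BMP signalling, a pathway of secreted ligands whose receptors activate SMAD factors, were listed after BAMBI and BMP7 had been seen to fall, so their count is no independent evidence. Of 24 tested, 7 were lower and 3 higher at a raw p under 0.05 (background 11.7% and 12.2%), with a median log2 fold-change of -0.20. BMP7, a ligand, was at 234, 210.3, and 198 CPM in the day-0 libraries and 154, 127, and 139 CPM in the day-7 libraries. The day-7 libraries were all lower, and BMP7 fell by 0.61 ± 0.10 on the log2 scale (SE, edgeR adjusted p = 0.0438). ID4, a BMP target that blocks basic helix-loop-helix factors, was at 17.7, 25.1, and 27.9 CPM at day 0 and 12.3, 8.74, and 12.2 CPM at day 7. It did not overlap and fell by 1.09 ± 0.19 on the log2 scale (SE, edgeR adjusted p = 0.0474). SMAD6, an inhibitor that BMP signals induce, was at a log2 fold-change of -0.53 ± 0.16 (SE, edgeR adjusted p = 0.107), and ID1, a classical target, overlapped at a log2 fold-change of -0.84 ± 0.36 (SE, edgeR adjusted p = 0.189). BMP8B, another ligand, met the 2-fold rule in the other direction, at a log2 fold-change of 1.02 ± 0.27 (SE, edgeR adjusted p = 0.0887).

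Keratins were likewise listed after the fall of KRT15 was seen. Of 13 tested, 7 were lower and none higher at a raw p under 0.05, with a median of -0.33. KRT13, a keratin of stratified mucosa, was at a log2 fold-change of -0.89 ± 0.25 (SE, edgeR adjusted p = 0.0925), and the luminal keratin KRT19 was at 3752, 3301, and 2673 CPM at day 0 and 2516, 1745, and 2094 CPM at day 7, lower in every day-7 library.

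A pair of other genes was named after their values were seen. PSMB7, a core subunit of the proteasome, was at 134, 115, and 105 CPM in the day-0 libraries and 76.3, 73.7, and 78.6 CPM in the day-7 libraries. It fell by 0.63 ± 0.10 on the log2 scale (SE, edgeR adjusted p = 0.0438). The nuclear long non-coding RNA NEAT1 was at 37.6, 57, and 130.4 CPM at day 0 and 189, 195, and 219 CPM at day 7, with a wide spread at day 0. Its log2 fold-change was 1.42 ± 0.35 (SE, edgeR adjusted p = 0.0813), with 1.10 and 2.08 as the lowest and highest values on leaving out 1 library, without day-0 replicates 1 and 3.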
